A study of Mus musculus with 32 samples.

Results

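The 10 genes described here encode subunits of the transcription factor NF-kB and proteins that bind or restrain it. They were chosen by name for their roles, with earlier results of these data known: Nfkb1, Nfkb2, Rela, Relb, Nfkbia, Nfkbiz, Tnfaip3, Tnip1, Birc3 and Zc3h12a. Each name was found once among the 56748 genes of the deposited count table, and all 10 were among the 16984 genes with enough counts to be tested, with at least 313 reads in every library. Poly(A) RNA was sequenced from primary white adipocytes, fat-storing cells grown from mouse subcutaneous adipose tissue and labelled WT. The cells received siAtf3, siNfe2l1, both siRNAs (called double below) or a scrambled siRNA, and each of these was given either 400 µM cholesterol on the carrier methyl-β-cyclodextrin for 6 h or a control treatment. Every one of the 8 resulting groups held 4 libraries, which the labels call biological replicates without naming animals. The series asks how the transcription factors Nfe2l1 and Atf3 bear on cholesterol-induced inflammation of these cells. Whether control cells also received the carrier is not stated, and small interfering RNAs lower a transcript without removing it.

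NF-kB is a pair of Rel-family proteins held in the cytoplasm by inhibitors of the IkB family. Signals from receptors such as those for TNF, interleukin-1 and bacterial products activate a kinase complex that marks the inhibitor for destruction, and the freed dimer then enters the nucleus and switches on genes of inflammation and survival. Among its targets are genes for its own subunits and for its own inhibitors, so that the response is limited by feedback. In white fat this pathway is known for driving chemokine and cytokine production in obesity. Of the members, Rela encodes the main activating subunit, Nfkb1 and Nfkb2 encode precursors that are processed to DNA-binding subunits, and Relb encodes the subunit typical of the alternative pathway. Nfkbia encodes IkB-alpha, the classical inhibitor, and Nfkbiz encodes IkB-zeta, a nuclear protein of the same family that can also assist transcription. Tnfaip3 encodes the ubiquitin-editing enzyme A20, Tnip1 encodes a protein that binds A20, and Zc3h12a encodes Regnase-1, an endonuclease that degrades cytokine mRNAs. Birc3 encodes a ubiquitin ligase that acts in TNF receptor signalling and restrains the alternative pathway.

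The sequences next to 4 of these genes are shown because they carry the recognition letters of the factor itself. RefSeq promoter windows of build GRCm38.p6, which run from 250 bases before to 50 bases after an annotated start, were found for 7 of the 10 members. Nfkb1, Relb and Nfkbiz had no entry. The 10-letter NF-kB consensus was searched on both strands and is given in capitals, overlapping matches joined into 1 run.
Nfkb2, chr19:46304487-46304786, plus strand: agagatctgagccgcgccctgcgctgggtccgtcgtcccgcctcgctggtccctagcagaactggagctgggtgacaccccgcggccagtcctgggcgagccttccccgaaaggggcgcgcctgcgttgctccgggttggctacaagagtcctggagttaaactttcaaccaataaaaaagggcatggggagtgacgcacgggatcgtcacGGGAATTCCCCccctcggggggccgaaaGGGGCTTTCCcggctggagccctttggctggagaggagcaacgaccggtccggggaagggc
Nfkbia, chr12:55492598-55492897, minus strand: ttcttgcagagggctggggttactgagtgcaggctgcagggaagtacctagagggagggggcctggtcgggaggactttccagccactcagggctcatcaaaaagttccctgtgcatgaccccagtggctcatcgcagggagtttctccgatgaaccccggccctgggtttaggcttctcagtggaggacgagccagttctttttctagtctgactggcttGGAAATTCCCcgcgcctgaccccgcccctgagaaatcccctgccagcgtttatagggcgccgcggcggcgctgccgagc
Tnfaip3, chr10:19015361-19015660, minus strand: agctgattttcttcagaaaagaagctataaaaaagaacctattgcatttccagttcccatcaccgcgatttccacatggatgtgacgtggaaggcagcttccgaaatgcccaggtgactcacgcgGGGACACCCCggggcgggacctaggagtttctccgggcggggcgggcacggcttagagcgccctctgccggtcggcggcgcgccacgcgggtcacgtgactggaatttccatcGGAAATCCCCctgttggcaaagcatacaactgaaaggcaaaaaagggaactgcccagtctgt
Tnip1, chr11:54962891-54963190, minus strand: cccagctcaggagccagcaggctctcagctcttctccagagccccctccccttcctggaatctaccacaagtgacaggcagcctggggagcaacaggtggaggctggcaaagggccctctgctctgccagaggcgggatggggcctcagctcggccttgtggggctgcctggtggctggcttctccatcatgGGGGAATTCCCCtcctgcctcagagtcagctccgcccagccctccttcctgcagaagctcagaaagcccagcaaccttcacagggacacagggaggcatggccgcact
The windows of Nfkb2, Nfkbia, Tnfaip3 and Tnip1 held the consensus, and those of Rela, Birc3 and Zc3h12a did not. Counted by gene, that is 4 of 7 members, beside 5.14% of the 27025 gene symbols in the promoter table. Nfkbia had 1 match, whose first base lay at position -29 relative to the start. Tnfaip3 had a match at position -12 and another at -125. The run in Tnip1 reads the same on both strands and began at position -58. The other 2 windows of Nfkb2, at further annotated starts, also held the consensus, while the other window of Tnfaip3 did not. These are matches of letters. Binding was not measured, and a window without a match says nothing about sites elsewhere.

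The libraries held 23457384 to 33828418 reads assigned to genes. The silencing was checked first. In control treatment Nfe2l1 had 61.5 to 80.2 CPM (reads of the gene per 1000000 reads of the scaled library) with siNfe2l1 and 112 to 116 CPM with both siRNAs, against 479 to 493 CPM with scramble. With cholesterol Nfe2l1 averaged 120 ± 17.4 CPM with siNfe2l1 and 157 ± 5.66 CPM with both siRNAs, against 814 ± 43.3 CPM with scramble (SD, n = 4 each). Atf3 averaged 40.9 ± 7.88 CPM with siAtf3 and 50.8 ± 2.99 CPM with both, against 398 ± 129 CPM with scramble, all with cholesterol. In control treatment it had 9.10 to 10.96 CPM with siAtf3 and 13.6 to 16.7 CPM with both, against 24.01 to 29.1 CPM with scramble. Atf3 itself was raised by cholesterol in scramble cells, where it had 281 to 561 CPM with cholesterol and 24.01 to 29.1 CPM with control treatment. All 8 adipocyte markers were called higher with cholesterol in scramble cells, and their summed level was 14321 to 15722 CPM with cholesterol and 10257 to 10683 CPM with control treatment. Markers of other cell types were also present, with 131 to 161 CPM with cholesterol and 212 to 249 CPM with control treatment summed over 10 macrophage markers in scramble cells. Lymphocyte markers stayed below 0.77 CPM summed in every library, and Cd3g was at 0 throughout. The 4 siNfe2l1 libraries with cholesterol stood apart from each other. A principal component analysis was run on the most variable genes only. Its first component held 80.2% of the variance of those genes and separated the treatments. On it the 4 siNfe2l1 libraries with cholesterol lay at 40.5, 34.3, 27.7 and 24.04, while the scramble libraries with cholesterol lay between 37.1 and 43.6. Values of that group with cholesterol are therefore also given without libraries 3 and 4. They were picked for lying nearest to the control libraries on this component, so a larger rise without them is no added support.

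All 10 genes rose with cholesterol in scramble cells. The largest rise was that of Tnfaip3, 8.17-fold, and the smallest that of Tnip1, 1.68-fold. A gene was called when its adjusted p, from a quasi-likelihood test of edgeR over all 16984 genes with Benjamini-Hochberg adjustment, was below 0.05, and 32.9% of all genes tested were called higher in this comparison. For all 10 members every cholesterol library lay above every control library, which held for 28.8% of all genes. The median log2 fold change of the 10 was 1.58, beside 0.00 over all genes. By role, the median log2 fold change was 1.05 over the 4 subunits and 2.18 over the 6 feedback genes. In bulk RNA a change in the number of cells of a type and a change in RNA per cell cannot be told apart. Markers of other cells were lower with cholesterol in scramble cells. Summed fibroblast markers were at 6937 to 7867 CPM with cholesterol and 23204 to 24525 CPM with control treatment, with 7 of 8 called lower. Summed endothelial markers were at 321 to 416 CPM with cholesterol and 629 to 681 CPM with control treatment, with 7 of 8 called lower, and 8 of 10 macrophage markers were called lower. No gene of these 3 lists was called higher, and the part of these shifts in the members' rise was not tested.

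Among the subunits, Relb responded most. In scramble cells its level was 109, 80.9, 95.9 and 85.9 CPM in the 4 cholesterol libraries, against 25.6, 30.7, 26.2 and 25.2 CPM in the 4 control libraries. The lowest cholesterol library was more than double the highest control library, and the log2 fold change was 1.79 ± 0.09 (SE; edgeR adjusted p 6.45e-18). Rela had 202, 171, 181 and 157 CPM with cholesterol, against 82.3, 90.0, 86.1 and 84.9 CPM with control treatment. Nfkb2 had 115, 98.1, 101 and 97.2 CPM with cholesterol, against 45.9, 54.8, 49.1 and 49.7 CPM with control treatment. Nfkb1 had 173, 165, 183 and 160 CPM with cholesterol, against 86.2, 88.9, 86.8 and 87.0 CPM with control treatment. These 3 genes, which are the activating subunit and both precursors, had similar estimates, with log2 fold changes of 1.05 ± 0.07 for Rela, 1.04 ± 0.06 for Nfkb2 and 0.96 ± 0.06 for Nfkb1. Their control libraries lay close together, and in all 3 the groups were clearly apart.

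The feedback genes spread more widely. Tnfaip3, the gene of A20, had 116, 126, 136 and 110 CPM with cholesterol in scramble cells, against 12.98, 15.4, 14.97 and 16.4 CPM with control treatment. It was the member with the lowest level per length in control cells and had the steepest response, with a log2 fold change of 3.03 ± 0.09 (edgeR adjusted p 6.88e-23). Nfkbiz had 94.9, 87.6, 113 and 73.7 CPM with cholesterol, against 15.6, 20.4, 19.7 and 18.3 CPM with control treatment, a log2 fold change of 2.31 ± 0.16. Zc3h12a had 175, 163, 185 and 138 CPM with cholesterol, against 32.1, 42.3, 32.9 and 32.1 CPM with control treatment, a log2 fold change of 2.24 ± 0.15. In both genes the cholesterol libraries were spread widely, yet the lowest of them was far above the controls. Nfkbia had 315, 224, 267 and 208 CPM with cholesterol, against 54.5, 64.1, 60.9 and 56.0 CPM with control treatment, a log2 fold change of 2.11 ± 0.13. Cholesterol library 1 was the highest for Nfkbia as it was for Relb, Rela, Nfkb2 and Tnip1, and library 4 was the lowest for all members but Relb and Tnip1. Birc3 had 42.2, 43.5, 43.7 and 41.1 CPM with cholesterol, against 16.05, 17.9, 15.3 and 16.5 CPM with control treatment, a log2 fold change of 1.37 ± 0.07. Tnip1 had 122, 110, 117 and 115 CPM with cholesterol, against 69.0, 72.6, 71.7 and 63.3 CPM with control treatment, a log2 fold change of 0.75 ± 0.06. The 4 cholesterol libraries of both genes lay within a narrow band.

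**Figure D1:**
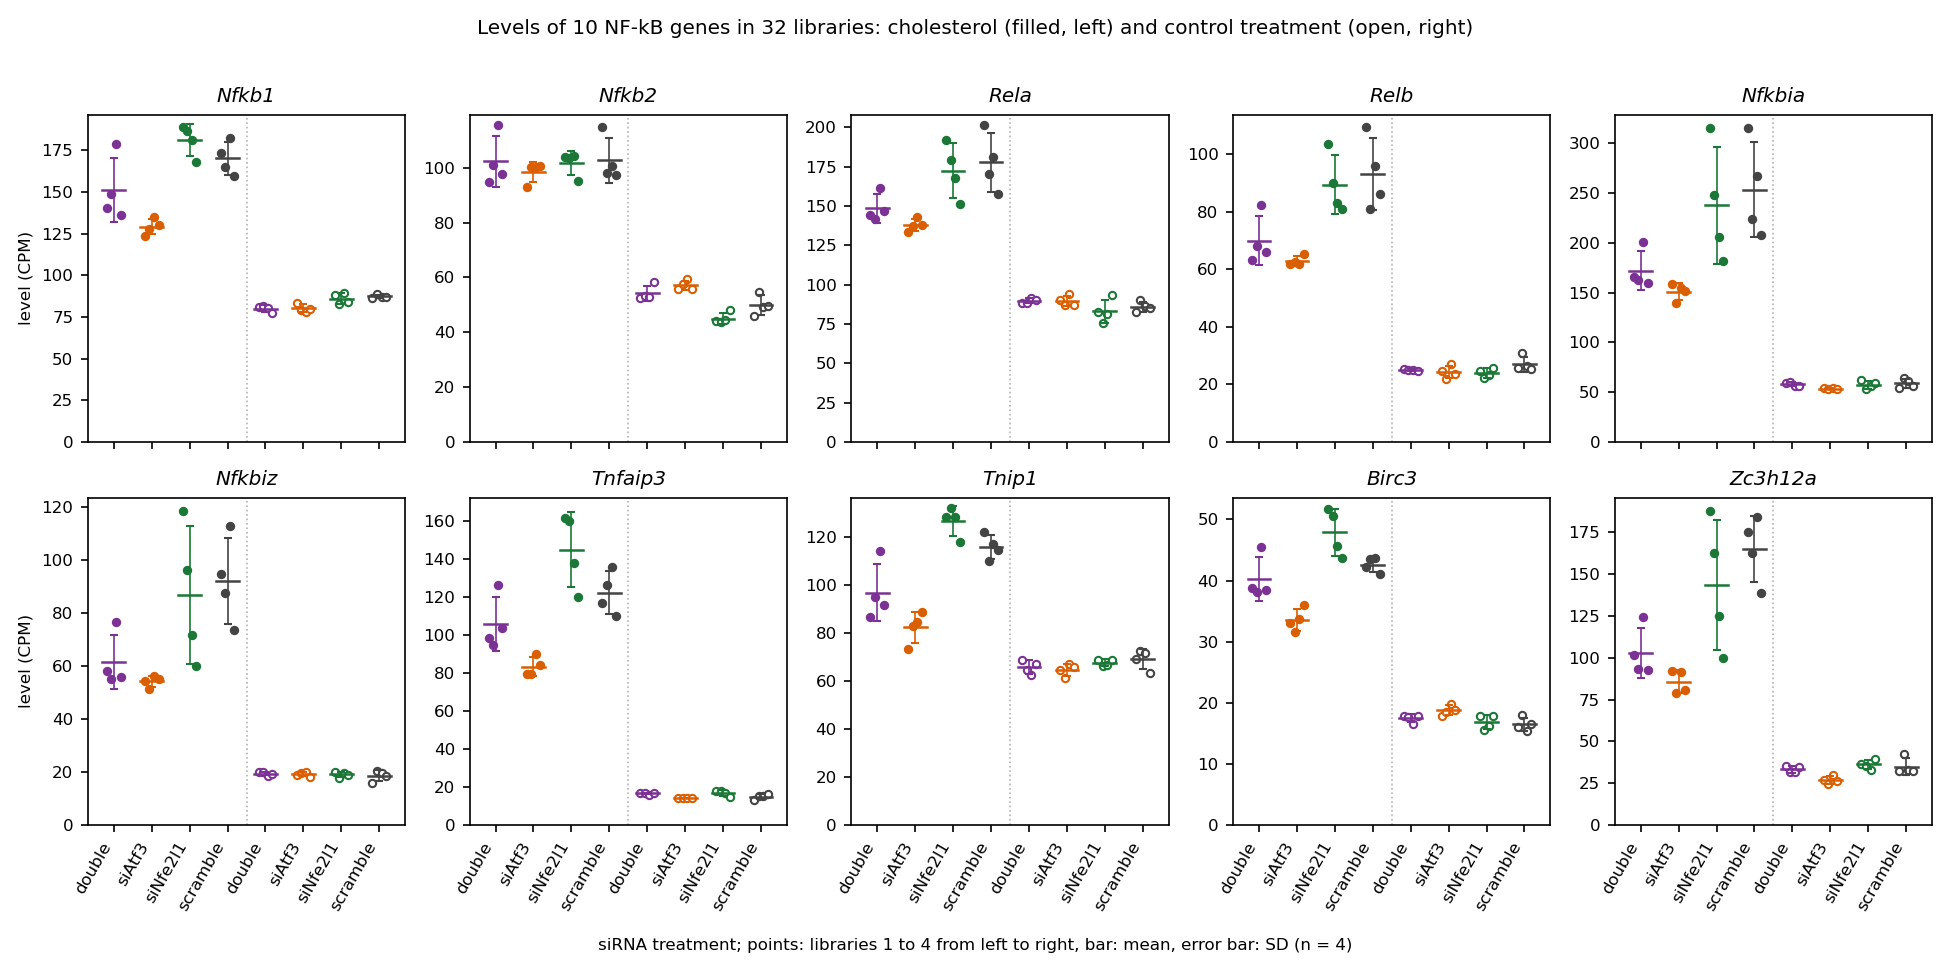
Level in CPM (vertical axis, from 0) of each of the 10 genes in 32 libraries. Points are single libraries, bars are group means and error bars are SD (n = 4), with the 4 cholesterol groups at left and the 4 control groups at right of the dotted line. In all 10 panels the cholesterol groups lie above the control groups, and siAtf3 with cholesterol lies below scramble with cholesterol in all panels but that of Nfkb2, where the 2 ranges overlap.

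Levels can be compared between genes only per length. In CPM per kb of the gene length given in the table, Nfkbia was the most abundant member in scramble cells, with 158 with cholesterol and 36.6 with control treatment. Rela followed with 57.9 with cholesterol and 27.9 with control treatment, and Zc3h12a had 57.3 with cholesterol and 12.1 with control treatment. In cholesterol the lowest was Birc3, with 8.51 CPM per kb, while in control treatment the lowest was Tnfaip3, with 2.06 CPM per kb. With cholesterol Tnfaip3 had 16.9 CPM per kb and stood above Nfkb1, which had 14.1 CPM per kb with cholesterol and 7.23 CPM per kb with control treatment.

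The rise with cholesterol was also called for all 10 genes in cells given siAtf3, siNfe2l1 or both, again with no overlap between the groups. The share of all genes called higher was 29.4% with siAtf3, 31.1% with siNfe2l1 and 29.8% with both siRNAs. The share of all genes with no overlap in that direction was 27.9% with siAtf3, 26.0% with siNfe2l1 and 29.0% with both. The members' median log2 fold change was 1.11 with siAtf3, 1.70 with siNfe2l1 and 1.34 with both. Tnfaip3 was the steepest in each, with log2 fold changes of 2.57 ± 0.09 with siAtf3, 3.11 ± 0.09 with siNfe2l1 and 2.68 ± 0.09 with both. Tnip1 was the flattest in each, at 0.35 ± 0.06 with siAtf3, 0.90 ± 0.06 with siNfe2l1 and 0.56 ± 0.06 with both. Without siNfe2l1 cholesterol libraries 3 and 4 the 10 rises with siNfe2l1 stayed called, from 0.94 for Tnip1 to 3.26 for Tnfaip3. The 4 comparisons share no libraries.

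**Figure D2:**
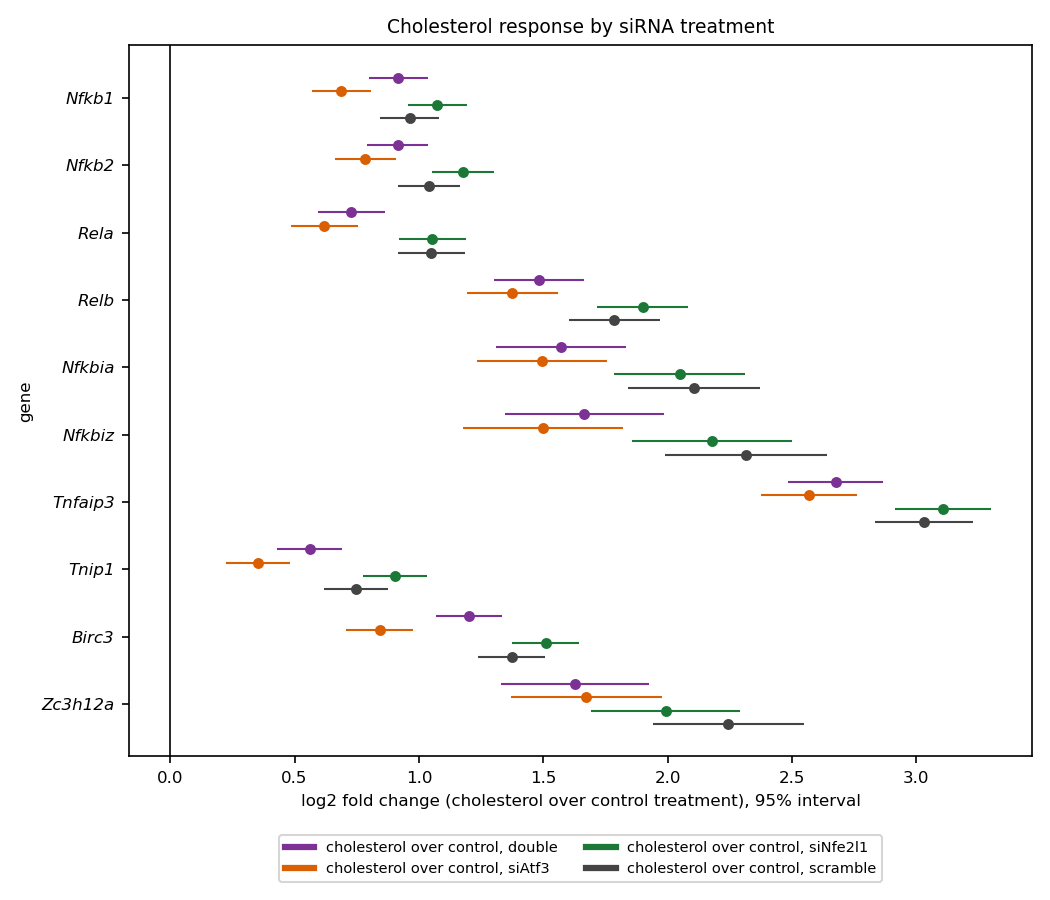
Log2 fold change of cholesterol over control treatment (horizontal axis) for each gene in cells given both siRNAs, siAtf3, siNfe2l1 or scramble, from top to bottom within a gene. Points are estimates of the edgeR model and lines are 95% intervals. All intervals lie above 0, from Tnip1 with siAtf3 at 0.35 to Tnfaip3 with siNfe2l1 at 3.11.

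With siAtf3 9 of the 10 members were lower in cholesterol than with scramble, and Nfkb2 did not pass the test. The genes called lower were Nfkb1, Rela, Relb, Nfkbia, Nfkbiz, Tnfaip3, Tnip1, Birc3 and Zc3h12a, each with every siAtf3 library below every scramble library. Of all genes tested 27.4% were called lower here and 22.6% were lower with no overlap. The median log2 fold change of the 10 members was -0.52, beside -0.02 over all genes. By role the medians were -0.38 for the subunits and -0.65 for the feedback genes. Of the 8 adipocyte markers 5 were called lower and 0 higher in this comparison. Their sums overlapped, at 13462 to 15681 CPM with siAtf3 and 14321 to 15722 CPM with scramble. Markers of other cells also differed. Summed fibroblast markers were at 3729 to 4112 CPM with siAtf3 and 6937 to 7867 CPM with scramble, with 5 of 8 called lower, and summed endothelial markers were at 231 to 269 CPM with siAtf3 and 321 to 416 CPM with scramble, with 5 of 8 called lower and 1 higher. Summed macrophage markers overlapped, at 141 to 176 CPM with siAtf3 and 131 to 161 CPM with scramble, with 4 of 10 called lower and 1 higher. The part of these cells in the members' difference was not tested. Scaled by library totals the same 9 members were called lower, but the median of all genes moved to 0.17. Of all genes 2712 were called lower and 6707 higher with that scaling. Among the 9 members 6 shrank by more than 1.5 times. The log2 fold change was then -0.16 for Birc3, -0.18 for Rela, -0.21 for Nfkb1, -0.30 for Tnip1, -0.36 for Tnfaip3 and -0.38 for Relb.

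Zc3h12a differed most. It had 92.3, 78.8, 91.3 and 80.8 CPM with siAtf3 in cholesterol, against 175, 163, 185 and 138 CPM with scramble in cholesterol. Every siAtf3 library was well below the lowest scramble library, and the log2 fold change was -0.95 ± 0.14 (edgeR adjusted p 2.45e-06), a level of 0.519 times that of scramble. Nfkbiz had 54.2, 51.4, 56.4 and 55.1 CPM with siAtf3 in cholesterol, against the 73.7 to 113 CPM of scramble given above, a log2 fold change of -0.76 ± 0.15. Nfkbia had 159, 140, 154 and 151 CPM with siAtf3 in cholesterol, against 208 to 315 CPM with scramble, a log2 fold change of -0.75 ± 0.12 (edgeR adjusted p 1.11e-05). For both inhibitors of the IkB family the siAtf3 libraries were tight and the scramble libraries were spread. Tnfaip3 had 79.3, 79.5, 90.0 and 84.1 CPM with siAtf3, against 110 to 136 CPM with scramble, a log2 fold change of -0.55 ± 0.08. Tnip1, whose protein works with A20, had 73.6, 83.1, 84.6 and 88.9 CPM with siAtf3, against 110 to 122 CPM with scramble, a log2 fold change of -0.49 ± 0.06. The log2 fold change of Birc3 was smaller, at -0.34 ± 0.06, with 31.6 to 36.0 CPM with siAtf3 and 41.1 to 43.7 CPM with scramble.

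Among the subunits Relb fell most with siAtf3 in cholesterol. It had 61.8, 62.4, 61.7 and 65.3 CPM with siAtf3, against 80.9 to 109 CPM with scramble, and its log2 fold change was -0.57 ± 0.08 (edgeR adjusted p 1.05e-06). Nfkb1 had 124 to 135 CPM with siAtf3 and 160 to 183 CPM with scramble, a log2 fold change of -0.40 ± 0.06. Rela had 133 to 143 CPM with siAtf3 and 157 to 202 CPM with scramble, a log2 fold change of -0.37 ± 0.06. Nfkb2 had 92.9, 100, 100 and 101 CPM with siAtf3 in cholesterol, against 115, 98.1, 101 and 97.2 CPM with scramble. These ranges overlap. Its log2 fold change was -0.06, with a 95% interval of -0.18 to 0.06 (edgeR adjusted p 0.423), so that a fall as large as that of Nfkb1, Rela or Relb lies outside the interval.

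With control treatment siAtf3 moved the same genes little. Nfkb2 and Birc3 were called higher, 2 of 10 where 18.1% of all genes were called higher, and no member was called lower. Nfkb2 had 55.9, 57.6, 59.3 and 55.9 CPM with siAtf3, against 45.9, 54.8, 49.1 and 49.7 CPM with scramble, both in control treatment. The siAtf3 libraries were all above the highest scramble library, by a narrow margin, and the log2 fold change was 0.20 ± 0.06 (edgeR adjusted p 0.00917). Birc3 had 17.8 to 19.8 CPM with siAtf3 and 15.3 to 17.9 CPM with scramble, ranges that overlap slightly, with a log2 fold change of 0.19 ± 0.07 (edgeR adjusted p 0.0272). Zc3h12a had 24.3 to 30.1 CPM with siAtf3 and 32.1 to 42.3 CPM with scramble. These ranges did not overlap, but the log2 fold change of -0.37 ± 0.15 missed the threshold (edgeR adjusted p 0.0517). It was called lower in 7 of 16 alternatives, among them the DESeq2 test (adjusted p 0.0113) and the replicate block (edgeR adjusted p 0.0472). Nfkb1, with 78.1 to 83.5 CPM with siAtf3 and 86.2 to 88.9 CPM with scramble, was also lower without overlap and not called. So was Nfkbia, by a very small margin, with 52.86 to 54.33 CPM with siAtf3 and 54.48 to 64.07 CPM with scramble. The share of all genes without overlap was not counted for this comparison. Leaving out 1 library, Nfkb2 missed without scramble library 1, and Birc3 missed in 5 of 8 removals. Fitted on these 2 groups alone, 7 members passed, Nfkb2 and Birc3 higher and Nfkb1, Relb, Nfkbia, Tnip1 and Zc3h12a lower. No share of all genes is given for that fit, so this count cannot be set against one. Scaled by library totals, where the median of all genes was 0.15, Nfkb2 was at 0.33, Birc3 at 0.33 and Rela at 0.20. These 3 were called higher, and Zc3h12a was at -0.24. Of all genes 5913 were called higher and 1871 lower with that scaling. Summed fibroblast markers were at 16342 to 17034 CPM with siAtf3 and 23204 to 24525 CPM with scramble, with 4 of 8 called lower and 1 higher. Endothelial markers summed to 502 to 523 CPM with siAtf3 and 629 to 681 CPM with scramble. For the macrophage markers the sums were 293 to 382 CPM with siAtf3 and 212 to 249 CPM with scramble. Of 8 adipocyte markers 3 were called lower and 0 higher. The part of these cells was not tested.

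**Figure D3:**
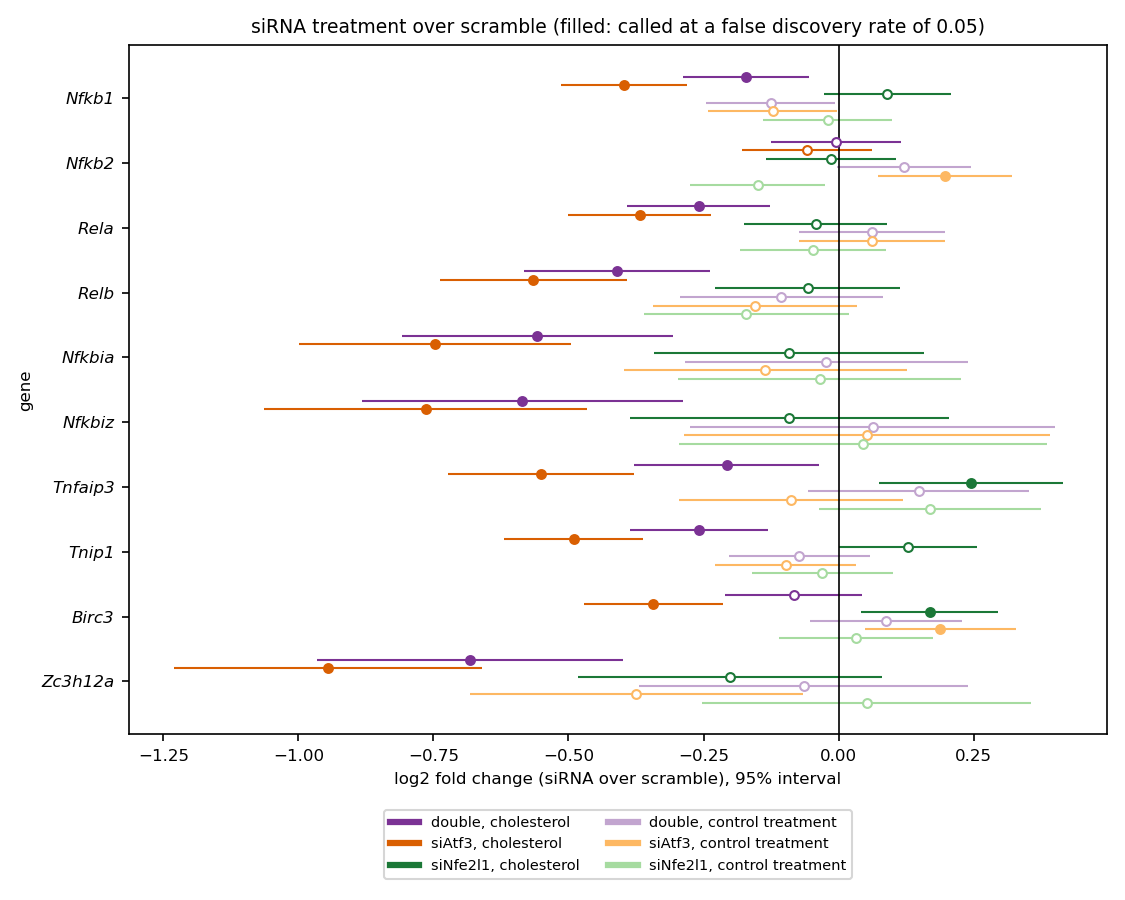
Log2 fold change of each siRNA treatment over scramble (horizontal axis) for each gene, with cholesterol (dark colours) and with control treatment (light colours). Points are estimates of the edgeR model, filled where called at a false discovery rate of 0.05, and lines are 95% intervals. The orange points with cholesterol lie between -0.95 and -0.34 for 9 genes and at -0.06 for Nfkb2, while most light points have intervals that include 0.

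The cholesterol response itself was compared between siRNA treatments by an interaction term, the log2 fold change with cholesterol under an siRNA minus that under scramble. With siAtf3 it was negative and called for 9 of 10 members, where 9.13% of all genes were called lower. The member that missed was Zc3h12a, with -0.57 ± 0.20 (edgeR adjusted p 0.0568), and DESeq2 and limma-voom called it too. Nfkbiz had the largest term, -0.82 ± 0.22, followed by Nfkbia with -0.61 ± 0.18 and Birc3 with -0.53 ± 0.09. For Nfkb2 the term was called too, at -0.26 ± 0.08 (edgeR adjusted p 0.0343), although its level in cholesterol overlapped between siAtf3 and scramble. Its rise with cholesterol was 1.72-fold with siAtf3 and 2.06-fold with scramble, from a higher control level with siAtf3. The term of Nfkb2 lost its call in 17 of 24 alternatives, that of Relb in 11 and that of Nfkb1 in 9. Scaled by library totals the term of Nfkb2 had an edgeR adjusted p of 0.0826. The count of 9 was 4 without scramble control library 1, 5 without scramble cholesterol library 3 or siAtf3 cholesterol library 2, and 10 without scramble control library 2 or scramble cholesterol library 4. The terms of Rela, Nfkbiz, Tnip1 and Birc3 passed whichever single library was left out. Without all libraries numbered 1 the count was 4, and that of Nfkbiz missed (edgeR adjusted p 0.0605).

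Silencing both factors lowered 8 members in cholesterol, by less than siAtf3 in each estimate, though the difference between these siRNA treatments was not tested directly. Of all genes 23.9% were called lower. The members that were not called were Nfkb2 and Birc3, the median log2 fold change of the 10 was -0.26, and only Nfkbia and Zc3h12a had no overlap between the groups, where 20.0% of all genes were lower with no overlap. Zc3h12a had 101, 93.4, 124 and 92.6 CPM with both siRNAs, against 175, 163, 185 and 138 CPM with scramble, a log2 fold change of -0.68 ± 0.14 (edgeR adjusted p 0.000215). Nfkbia had 165, 162, 201 and 160 CPM with both siRNAs, against 208 to 315 CPM with scramble, a log2 fold change of -0.56 ± 0.12. Library 3 of the double group was the highest of its 4 for all 10 members, and in Nfkbiz it alone reached into the scramble range, with 76.7 CPM against 55.1 to 58.2 CPM in the other 3. Nfkbiz fell by 0.59 on the log2 scale, Relb by 0.41, Rela and Tnip1 by 0.26 each, Tnfaip3 by 0.21 and Nfkb1 by 0.17. The call of Tnfaip3 was lost without scramble library 2 or 3 or double library 1, 2 or 4, and that of Nfkb1 without scramble library 3 or double library 1 or 4. Birc3 had 38.1 to 45.6 CPM with both siRNAs and 41.1 to 43.7 CPM with scramble, a log2 fold change of -0.08 with a 95% interval of -0.21 to 0.04. Nfkb2 had 94.96 to 116 CPM with both siRNAs and 97.2 to 115 CPM with scramble, with a 95% interval of -0.12 to 0.12, but scaled by library totals it was called higher, at 0.15 on the log2 scale. Under that scaling 5 members were called, Nfkb2 higher and Relb, Nfkbia, Nfkbiz and Zc3h12a lower. Of all genes 6049 were called higher and 2299 lower there, with a median of 0.14. Adipocyte markers summed to 13109 to 14203 CPM with both siRNAs and 14321 to 15722 CPM with scramble, with 5 of 8 called lower and 0 higher. Summed fibroblast markers were at 4420 to 5193 CPM with both siRNAs and 6937 to 7867 CPM with scramble, with 5 of 8 called lower and 1 higher. Summed endothelial markers were at 266 to 315 CPM with both siRNAs and 321 to 416 CPM with scramble, with 3 of 8 called lower and 1 higher. Summed macrophage markers were 214 to 238 CPM with both siRNAs and 131 to 161 CPM with scramble, with 5 of 10 called higher. The part of these cells in the difference was not tested.

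With control treatment no member was called with both siRNAs, where 27.2% of all genes were called in either direction. Without adjustment only Nfkb1 was below 0.05 (p 0.0366), with 77.2 to 81.5 CPM with both siRNAs and 86.2 to 88.9 CPM with scramble, ranges that did not overlap. Fitted on these 2 groups alone, 2 members passed, Nfkb1 lower and Nfkb2 higher, and no share of all genes is given for that fit. Scaled by library totals, 4 were called higher, Nfkb2, Rela, Tnfaip3 and Birc3. Of all 16984 genes 4373 were called higher and 1473 lower with that scaling, with a median of 0.11. In control treatment the macrophage markers summed to 475 to 516 CPM with both siRNAs and 212 to 249 CPM with scramble. In the same order the sums were 541 to 566 and 629 to 681 CPM for endothelial markers. For fibroblast markers they were 18197 to 19116 and 23204 to 24525 CPM. Of 8 adipocyte markers 2 were called lower and 0 higher. The part of these cells was not tested. The interaction of cholesterol with both siRNAs was called lower for Rela, Nfkbia, Nfkbiz and Zc3h12a, 4 of 10 where 7.21% of all genes were called lower. Its values were -0.32 ± 0.09 for Rela, -0.54 ± 0.18 for Nfkbia, -0.65 ± 0.22 for Nfkbiz and -0.62 ± 0.20 for Zc3h12a. Nfkbia, Nfkbiz and Zc3h12a each lost the call in most removals of a single library, with an edgeR adjusted p of up to 0.124 for Nfkbia. That of Rela was lost without scramble cholesterol library 1 only (edgeR adjusted p 0.0516), a removal that left no member called, as did leaving out all libraries numbered 1. Without double cholesterol library 3, the high library, 7 members passed. It was the highest of its group for all 10 members, so leaving it out lowers these terms, and the larger count is no added support. Over all genes 1634 to 2696 were called in this interaction, in either direction, leaving out 1 library.

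Silencing Nfe2l1 alone changed the members least. With control treatment none was called, where 5.99% of all genes were called in either direction. Nfkb2 had 43.7 to 48.0 CPM with siNfe2l1 and 45.9 to 54.8 CPM with scramble, the only member with an unadjusted p below 0.05 (p 0.0188, edgeR adjusted p 0.156). In control treatment the macrophage markers summed to 283 to 428 CPM with siNfe2l1 and 212 to 249 CPM with scramble. Fibroblast sums were 25919 to 28227 CPM with siNfe2l1 and 23204 to 24525 CPM with scramble, and endothelial sums overlapped. Of 8 adipocyte markers 1 was called lower and 1 higher. With cholesterol Tnfaip3 and Birc3 were called higher, 2 of 10 where 11.3% of all genes were called higher. Tnfaip3 had 161, 160, 138 and 120 CPM with siNfe2l1, against 116, 126, 136 and 110 CPM with scramble. Libraries 1 to 3 lay above all scramble libraries and library 4 lay among them, and the log2 fold change was 0.24 ± 0.08 (edgeR adjusted p 0.0336). Without siNfe2l1 libraries 3 and 4 it was 0.39 (edgeR adjusted p 0.00235). Birc3 had 51.6, 50.6, 45.7 and 43.7 CPM with siNfe2l1, against 42.2, 43.5, 43.7 and 41.1 CPM with scramble, groups that did not overlap by a very small margin, with a log2 fold change of 0.17 ± 0.06 (edgeR adjusted p 0.0483). Without libraries 3 and 4 it was 0.26 (edgeR adjusted p 0.016). As these libraries were left out for lying nearest to the control libraries, the larger values of Tnfaip3 and Birc3 add no support to their calls. Leaving out 1 library, the call of Tnfaip3 was lost without scramble library 1 or 4 or siNfe2l1 library 1, 2 or 3, and that of Birc3 in every removal but that of siNfe2l1 library 4. Zc3h12a was called lower, at -0.36, without siNfe2l1 library 1. Neither Tnfaip3 nor Birc3 passed in a fit of these 2 groups alone, with adjusted p 0.185 for Tnfaip3 and 0.195 for Birc3. In cholesterol summed macrophage markers stood at 239 to 278 CPM with siNfe2l1 and 131 to 161 CPM with scramble, with 9 of 10 called higher. Adipocyte markers summed to 12731 to 13703 CPM with siNfe2l1 and 14321 to 15722 CPM with scramble, with 2 of 8 called lower and 0 higher. Summed fibroblast markers stood at 8733 to 9294 CPM with siNfe2l1 and 6937 to 7867 CPM with scramble, with 4 of 8 called higher, and 6 of 8 endothelial markers were called higher. The part of these cells was not tested.

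The siNfe2l1 libraries with cholesterol also differed among themselves. Nfkbia had 316, 249, 205 and 182 CPM in them, Nfkbiz 118, 96.4, 71.9 and 59.9 CPM, and Zc3h12a 188, 163, 125 and 99.8 CPM. In all 3 genes libraries 1 and 2 lay within the scramble range or above it, and libraries 3 and 4 lay below it. Atf3 itself had 481, 290, 166 and 134 CPM in libraries 1, 2, 3 and 4 of this group, against 281 to 561 CPM in the scramble libraries, and its part in these values was not tested. Zc3h12a averaged 144 ± 38.9 CPM with siNfe2l1 and 165 ± 19.9 CPM with scramble (SD, n = 4 each), a log2 fold change of -0.20 with a 95% interval of -0.48 to 0.08. Without libraries 3 and 4 the estimates were 0.08 for Zc3h12a, 0.15 for Nfkbia and 0.22 for Nfkbiz, and none of the 3 was called with or without them. Among the subunits Rela had 192, 179, 168 and 151 CPM and Relb 104, 89.9, 83.1 and 80.8 CPM in libraries 1, 2, 3 and 4, while Nfkb1, with 168 to 189 CPM, and Nfkb2, with 95.1 to 104 CPM, were tighter. The interaction of siNfe2l1 with cholesterol was not called for any member, where 0.247% of all genes were called, and none had an unadjusted p below 0.05. Neither was the interaction of the 2 siRNAs, the effect of both minus the sum of each alone. It was not called for any member with control treatment, where 1.93% of all genes were called, or with cholesterol, where 5.09% were called. With cholesterol all 10 estimates were positive, from 0.07 for Nfkb2 to 0.46 ± 0.19 for Zc3h12a (unadjusted p 0.0244, edgeR adjusted p 0.166), the only one below 0.05 before adjustment. Without siNfe2l1 cholesterol library 1, 2 members passed, Nfkbia and Zc3h12a. Without libraries 3 and 4 of that group Zc3h12a was at 0.18 and Nfkbia at 0.04, the estimates of Nfkbiz, Tnfaip3 and Birc3 were at or below 0 (-0.04, -0.05 and -0.0014), and none was called. With control treatment none was below 0.05 before adjustment. DESeq2 and limma-voom also called no member in these 3 interactions, with siNfe2l1 in control treatment or with both siRNAs in control treatment.

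Ordered by mean level over all 8 groups, the 4 cholesterol groups came first and the 4 control groups last for every member. Within cholesterol siAtf3 was the lowest for all 10, and the double group was next above it except for Nfkb2. There the order was scramble, double, siNfe2l1 and siAtf3 with means of 103, 102, 102 and 98.5 CPM and ranges that all overlapped. The highest mean was that of siNfe2l1 for Nfkb1, Tnfaip3, Tnip1 and Birc3 and that of scramble for the other 6. The ranges of siNfe2l1 and scramble overlapped for all members but Birc3. The step from the lowest cholesterol group to the highest control group was free of overlap for all 10, and was 4.96-fold for Tnfaip3 and 1.19-fold for Tnip1, where siAtf3 with cholesterol had 73.6 to 88.9 CPM and scramble with control treatment had 63.3 to 72.6 CPM. Among the control groups the neighbouring ranges overlapped for all members, with the exception of Zc3h12a, whose siAtf3 libraries lay below those of the double group.

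The wider pathway was counted over lists by role. Over all genes tested, 3898 of 16984 were called higher and 4659 lower with siAtf3 in cholesterol, 3071 higher and 3093 lower with siAtf3 in control treatment, and 5584 higher and 5487 lower with cholesterol in scramble cells. Of the 5 other Rel and IkB genes, 4 were called higher with cholesterol in scramble cells, and these 4 were called lower with siAtf3 in cholesterol. Nfkbib, the gene of IkB-beta, had 37.3, 36.3, 34.9 and 37.5 CPM with siAtf3 in cholesterol, against 78.0, 55.5, 61.6 and 58.8 CPM with scramble in cholesterol. Its log2 fold change with siAtf3 was -0.80 ± 0.09 and with cholesterol in scramble cells 1.46 ± 0.09. For Rel, the gene of c-Rel, these were -0.81 ± 0.10 with siAtf3 and 1.06 ± 0.10 with cholesterol. For Bcl3, a nuclear IkB protein that pairs with the products of Nfkb1 and Nfkb2, they were -0.55 ± 0.10 with siAtf3 and 0.61 ± 0.10 with cholesterol. Unlike Nfkbia, both Bcl3 and Nfkbib were also called lower with siAtf3 in control treatment, by -0.50 ± 0.10 for Bcl3 and -0.26 ± 0.10 for Nfkbib, although a difference between genes was not tested.

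Upstream of NF-kB the receptors split. With cholesterol in scramble cells 5 of 11 receptor genes were called higher and 5 lower, with a median log2 fold change of -0.25. The interleukin-1 receptor genes Il1r1 and Il1rap each fell by 1.57 on the log2 scale. Tlr2, which senses bacterial lipoproteins, rose by 2.78 ± 0.15, and Tnfrsf12a, the TWEAK receptor gene, by 1.43 ± 0.09. With siAtf3 in cholesterol 6 receptor genes were called lower and 2 higher, among them Il1r1 at -0.64 ± 0.08 and the TNF receptor gene Tnfrsf1b at -0.79 ± 0.07. Of 27 genes for adaptors and kinases, 15 were called higher and 7 lower with cholesterol in scramble cells, with a median of 0.27. Map3k8, a kinase gene of this pathway, rose most among those named, by 2.28 ± 0.14, and Chuk, which encodes the IKK-alpha kinase, rose by 0.64 ± 0.05. With siAtf3 in cholesterol 12 of the 27 were called lower, where 27.4% of all genes were, and 6 higher, a share close to that of all genes, with a median of -0.09. The lowest adjusted p there were those of Rbck1 (-0.77 ± 0.05), Traf6 (-0.94 ± 0.08), Tab2 (-0.54 ± 0.05) and Myd88 (-0.54 ± 0.07). The same 4 genes were called lower with siAtf3 in control treatment too, with Traf6 at -0.87 ± 0.08 and Rbck1 at -0.65 ± 0.05. Over all genes, 32.3% were called lower with cholesterol in scramble cells.

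Among 13 other restraints of the pathway, 7 were called higher and 3 lower with cholesterol in scramble cells. Of all genes, 32.9% were called higher and 32.3% lower there. Zfp36, which encodes an mRNA-destabilising protein, rose by 2.84 ± 0.13 on the log2 scale and Tnip2, a relative of Tnip1, by 1.00 ± 0.08. With siAtf3 in cholesterol 3 were called lower and 2 higher. Zfp36 had 140, 126, 138 and 127 CPM with siAtf3, against 268, 201, 240 and 198 CPM with scramble, groups without overlap and a log2 fold change of -0.78 ± 0.12. Of 28 target genes 27 were tested, and 18 were called higher and 3 lower with cholesterol in scramble cells, with a median of 0.86. Icam1, an adhesion molecule gene, rose by 1.78 ± 0.09 and Ptgs2, the gene of cyclooxygenase-2, by 2.69 ± 0.12. With siAtf3 in cholesterol 16 of the 27 targets were called lower, where 27.4% of all genes were, and 2 higher, with a median of -0.49. In control treatment 8 of the 27 were called lower with siAtf3, where 18.2% of all genes were, and 2 higher. Lcn2, Gadd45b and C3 were lower with siAtf3 under both treatments, with log2 fold changes for Lcn2 of -1.59 ± 0.15 in cholesterol and -1.50 ± 0.15 in control treatment. Ptgs2 went against the list, with 235, 198, 233 and 215 CPM with siAtf3 in cholesterol, against 145, 145, 156 and 145 CPM with scramble in cholesterol. The siAtf3 libraries were all above the scramble libraries, and the interaction term of Ptgs2 was 1.32 ± 0.17 (edgeR adjusted p 1.41e-05).

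**Figure D4:**
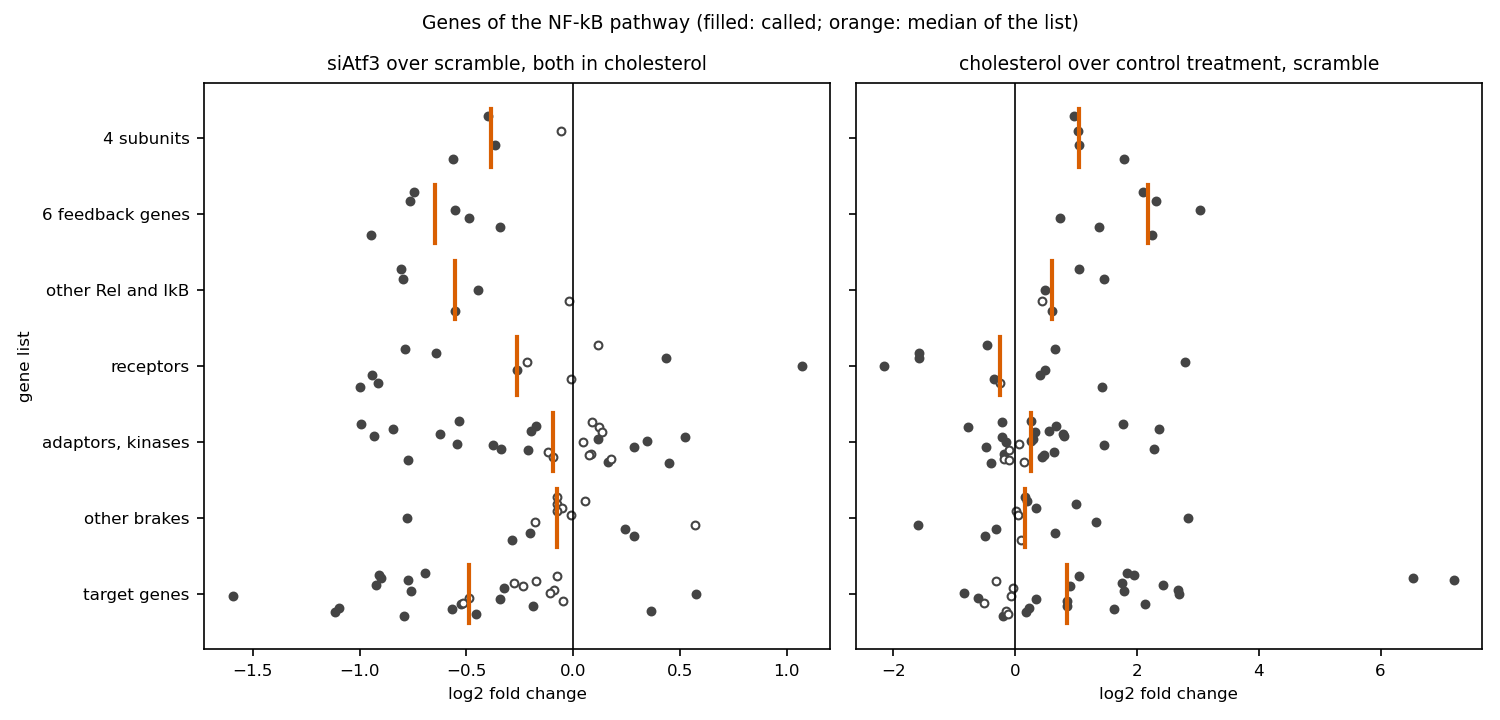
Log2 fold change (horizontal axis) of each gene of the NF-kB pathway by list, with siAtf3 over scramble in cholesterol at left and cholesterol over control treatment in scramble cells at right. Points are genes, filled where called, and orange bars are list medians. The bars at left lie furthest below 0 for the 6 feedback genes, at -0.65, and those at right furthest above 0 for the same genes, at 2.18.

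The members' patterns over the 8 group means were compared by the root mean square difference between centred log2 CPM profiles, as a description over 10885 protein-coding genes with enough counts. Within the set, Nfkbia was closest to Nfkbiz, with a difference of 0.07, and Nfkb1 to Rela, with 0.09. The largest difference was that of Tnfaip3 and Tnip1, with 1.10, the members with the steepest and the flattest rise. Their cholesterol groups stood in the same order of mean level. The profiles were not scaled, so the difference grows with the size of a gene's changes. The nearest other genes were picked as those with the smallest of 10885 differences over 8 group means, and shared regulation was not tested. Among other genes the nearest to Nfkbia were Junb, at 0.045, and Maff, at 0.060, and the nearest to Nfkb1 was Kdm6b, at 0.045. Relb was nearest to Hivep2, at 0.047, and Nedd4l, Nfkb2 to Pwp2, at 0.039, and Sirt1, and Rela to Trpc1, at 0.039, and Smg8. Nfkbiz was nearest to Arhgap22 and Hsp90aa1, Zc3h12a to Clcf1 and Klf6, Birc3 to Stx3 and Ier2, and Tnip1 to Lrrc8c and Mtmr10. The nearest to Tnfaip3 was Pgf, at 0.142, a larger difference than for the other members, but its profile also varied most. The SD of the profile over the 8 group means was 1.53 for Tnfaip3, 0.673 for Birc3 and 0.387 for Tnip1.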

How the data were processed

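Raw read counts per gene were deposited by the authors, who trimmed reads with fastp, aligned them to GRCm39 with HISAT2 2.0.5 and counted with featureCounts 1.5.0-p3, per the submitters' processing notes. Strand setting and the handling of multiply aligned reads are not given in the sources used here, so reads of overlapping antisense genes could not be told apart. A C in a column name was taken to mean cholesterol.

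Counts were analysed in R 4.3.3 with edgeR 4.0.16: filterByExpr by group (minimum count 10, minimum total 15), TMM scaling, and 1 robust quasi-likelihood fit of 8 group means over all 32 libraries (24 residual degrees of freedom). The spread is thus shared by all groups. The 15 comparisons were 10 of 2 groups and 5 interactions, two-sided, with p-values adjusted over all genes within a comparison. Levels are CPM on TMM-scaled library sizes. Log2 fold changes are given ± SE. All 10 members are named in every comparison, and from each pathway list up to 4 called genes with the smallest adjusted p, of which not all are printed, plus Nfe2l1 and Atf3. Cd3g was named after its values were seen. The members and gene lists were chosen with earlier results of these data known. The labels do not say that replicates came from separate animals, so p-values measure the spread between these libraries. No library was a copy of another (chi-square divided by its degrees of freedom lay between 2.67 and 42.2 over 48 pairs within groups). Each member had at least 313 reads in each library. Counting error alone came to 1.29% to 5.15% of a group mean, and in 11 of 80 sets of 4 libraries it exceeded the SD between libraries. Same-numbered libraries of siAtf3 and scramble in cholesterol deviated together (r 0.17 to 0.36 for the 4 numbers). The main fit had no block and did not pair them. A block by replicate number was therefore also fitted on these 2 groups alone, an alternative chosen after seeing the data. Alternatives were other scalings, no filter, DESeq2 1.42.0, limma-voom (limma 3.58.1), the replicate number as a block, only the groups compared, and leaving out libraries. The scripts were checked on simulated counts.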

Additional observations from a re-analysis of the deposited data

Results flagged for a closer look

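Of 80 sets of 4 libraries, 1 for each member and group, 9 had a library whose gap to the nearest other exceeded Dixon's critical share of the whole range, while chance flags about 1 in 20. For Nfkb2 these were siNfe2l1 control library 4 (48.0 CPM, the others 43.7 to 44.3, ratio 0.858), double control library 4 (58.3 CPM, the others 52.3 to 53.3, ratio 0.836), siNfe2l1 cholesterol library 4 (95.1 CPM, the others 104, ratio 0.949) and siAtf3 cholesterol library 1 (92.9 CPM, the others 100 to 101, ratio 0.955). Double cholesterol library 3 stood out for Nfkbia (201 CPM, the others 160 to 165, ratio 0.869), Nfkbiz (76.7 CPM, the others 55.1 to 58.2, ratio 0.854) and Birc3 (45.6 CPM, the others 38.1 to 38.8, ratio 0.918). Birc3 was also low in double control library 3 (16.6 CPM, the others 17.7 to 17.9, ratio 0.851), and Zc3h12a was high in scramble control library 2 (42.3 CPM, the others 32.1 to 32.9, ratio 0.919).

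The response to cholesterol differed from that in scramble cells by the interaction test, in log2 units, with siAtf3 for Nfkb1 (-0.28), Nfkb2 (-0.26), Rela (-0.43), Relb (-0.41), Nfkbia (-0.61), Nfkbiz (-0.82), Tnfaip3 (-0.46), Tnip1 (-0.39) and Birc3 (-0.53). With both siRNAs it differed for Rela (-0.32), Nfkbia (-0.54), Nfkbiz (-0.65) and Zc3h12a (-0.62). Of 24 alternatives for each term, the call with siAtf3 was lost in 17 for Nfkb2, 11 for Relb and 9 for Nfkb1. The call with both siRNAs was lost in 14 for Nfkbia, 16 for Nfkbiz and 13 for Zc3h12a.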

How the results depend on the processing

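All 10 members stayed called higher with cholesterol under each of the 4 siRNA treatments, and 9 stayed called lower with siAtf3 in cholesterol, in every alternative run. Of 2850 alternative member values 2680 kept their side of the threshold (83 of these, uncalled both times, turned sign), 136 lost the call, 33 gained it and 1 turned round on gaining it: Nfkb2 with both siRNAs in cholesterol was 0.15 (adjusted p 0.0294) scaled by library totals. That scaling put the median log2 fold change of all genes at -0.12 with cholesterol in scramble cells (4332 higher and 6804 lower calls, against 5584 and 5487 with TMM), 0.15 with siAtf3 in control treatment (5913 and 1871, against 3071 and 3093), 0.11 with both siRNAs in control treatment (4373 and 1473, against 2199 and 2426), 0.17 with siAtf3 in cholesterol (6707 and 2712, against 3898 and 4659) and 0.14 with both in cholesterol (6049 and 2299, against 3537 and 4056). With siNfe2l1 in cholesterol calls split into 2615 higher and 992 lower, against 1923 and 1459. Members called were 2 with siNfe2l1 in cholesterol, but 1 with DESeq2 size factors, the DESeq2 test or the replicate block, and 0 with no filter, the groups compared alone or the libraries numbered 1 left out (0 to 2 leaving out 1 library). With both siRNAs in control treatment 0 became 4 with library totals and 2 with the groups compared alone, and in cholesterol 8 became 5 with library totals (6 to 8 leaving out 1 library). With siAtf3 in control treatment 2 became 1 with no filter or the libraries numbered 1 left out and 7 with the groups compared alone (1 to 2 leaving out 1 library). Members called in the interaction of both siRNAs with cholesterol were 4, but 1 with no filter and 0 without libraries numbered 1 (0 to 7 leaving out 1 library). For siAtf3 they were 9, but 4 without libraries numbered 1 (4 to 10 leaving out 1 library), and for the interaction of the 2 siRNAs in cholesterol 0 (0 to 2 leaving out 1 library).

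Over all genes, the siNfe2l1 interaction called 42, but 72 with no filter, 344 with the DESeq2 test, 143 with the replicate block, 2 with the groups compared alone, 670 without libraries numbered 1 and 5 without siNfe2l1 cholesterol libraries 3 and 4 (2 to 1337 leaving out 1 library). The interaction of the 2 siRNAs called 328 in control treatment, but 557 with the DESeq2 test and 757 with the groups compared alone (214 to 339 leaving out 1 library). In cholesterol it called 865, but 1337 with the DESeq2 test, 259 with the groups compared alone, 1605 without libraries numbered 1 and 312 without libraries 3 and 4 (510 to 2295 leaving out 1 library). With siNfe2l1 in cholesterol 3382 became 645 with the groups compared alone and 1206 without libraries 3 and 4 (2153 to 4755 leaving out 1 library). The causes were not tested. Of the 28 pairs of groups, siAtf3 and scramble in cholesterol were the only one whose 4 same-numbered pairs all had r over 0.1. Of 24 such pairs of libraries between cholesterol groups 17 were over 0.1 (r -0.11 to 0.55), against 3 of 24 between control groups, and 12 of 32 libraries correlated best with their own number. With the replicate block 148 of 150 member calls were the same, and fitted on siAtf3 and scramble in cholesterol alone it called the same 9 members.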
